A study of Mus musculus with 4 samples.

Results

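The nuclear-encoded genes of oxidative phosphorylation were taken as every gene whose symbol starts with Nduf, Uqcr, Atp5 or Cox followed by a digit from 4 to 8, without the Nduf assembly factors and without pseudogenes. The rule found 81 rows of 31053 in the count tables, with 80 distinct symbols because Atp5o is listed under 2 identifiers. By symbol, 38 belong to complex I (Nduf), 8 to complex III (Uqcr), 18 to complex IV (Cox) and 17 to complex V (Atp5). At least 1 UMI (unique molecular identifier, counted once per captured molecule) was found in kept cells for 80 of the 81 rows. The second Atp5o row held none.

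The mitochondrial respiratory chain passes electrons from NADH through complexes I, III and IV to oxygen and pumps protons across the inner mitochondrial membrane. Complex V, the ATP synthase, uses the resulting gradient to make ATP. Most subunits are made in the cytosol from nuclear genes and imported, while a small set of core subunits is encoded on mitochondrial DNA, so that complexes I, III, IV and V hold products of both genomes. Hepatocytes are rich in mitochondria and rely on this pathway for gluconeogenesis, urea synthesis and fatty acid oxidation.

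Single-cell RNA was measured in C57BL/6 mouse liver in 4 libraries, 1 per group, called control, low-AFP, high-AFP and, for hepatocellular carcinoma, HCC. AFP is alpha-fetoprotein, a fetal liver protein used as a tumour marker. Where 4 values follow one another without names, they stand for these libraries in that order. The control library is titled as control diet, the low-AFP library as CD-HFD, the diet named in the series title, and the HCC library came from a cell suspension of the tumour region. The high-AFP library carries control diet in its title and CD-HFD in its file name, so it is called here by its AFP label. For all 4 the age is 15 months by title but 17 months by the age field, and the same protocol text, a mix of parenchymal cells from a Percoll gradient with sorted live cells of the other fraction, stands in every library's labels. The labels do not say how many animals a library holds. With 1 library per group there is no replicate error, no test was made, and a difference below describes these libraries and not the conditions. Intervals are exact 95% Poisson or binomial intervals and cover counting error only.

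The libraries held 71957655, 80505127, 97393862 and 65326793 UMIs, and 6359, 5359, 8477 and 8004 barcodes passed the filters on genes, UMIs and mitochondrial share. The limit of 30% mitochondrial UMIs removed 2639, 1919, 1860 and 465 barcodes. Pairs of libraries shared between 3 and 29 of their kept barcodes. Cells were clustered without the 81 genes and without mitochondrially encoded genes, so class names do not rest on them. Hepatocyte-like cells numbered 2384, 1930, 3311 and 718, with all 10 hepatocyte markers detected in each library. The summed level of those markers differed between the libraries, at 135000, 108641, 83741 and 64697 CPM, and Alb alone ranged from 64877 CPM in control to 12503 CPM in HCC. Here CPM is UMIs per 1000000 nuclear-encoded UMIs of the same cells.

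Hepatocyte-like cells had the highest summed level of the 81 genes of all named classes in every library. The level was 38397 (38325 to 38470), 45006 (44937 to 45075), 46991 (46928 to 47054) and 46379 (46168 to 46590) CPM. These levels were 1.96, 1.97, 2.05 and 2.31 times the median of the other classes of the same library. Cholangiocyte-like cells, the epithelium of the bile ducts, came next and plasmacytoid dendritic-like cells after them in all 4 libraries. Cholangiocyte-like levels were 29063, 29576, 31136 and 25546 CPM. The lowest class was the erythroid-like one in the 3 libraries with at least 20 of its cells, at 10476 CPM in control, 8795 in high-AFP and 6400 in HCC. That class is cluster 33 alone, whose leading genes also include the plasma cell genes Jchain and Mzb1. Its level is therefore not that of erythroid cells alone. Neighbouring classes in the middle of the order lay close together, such as T-like cells at 23870 CPM (23630 to 24111) and NK and type 1 innate-like cells at 24069 CPM (23630 to 24513) in control, whose counting intervals overlapped.

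**Figure D1:**
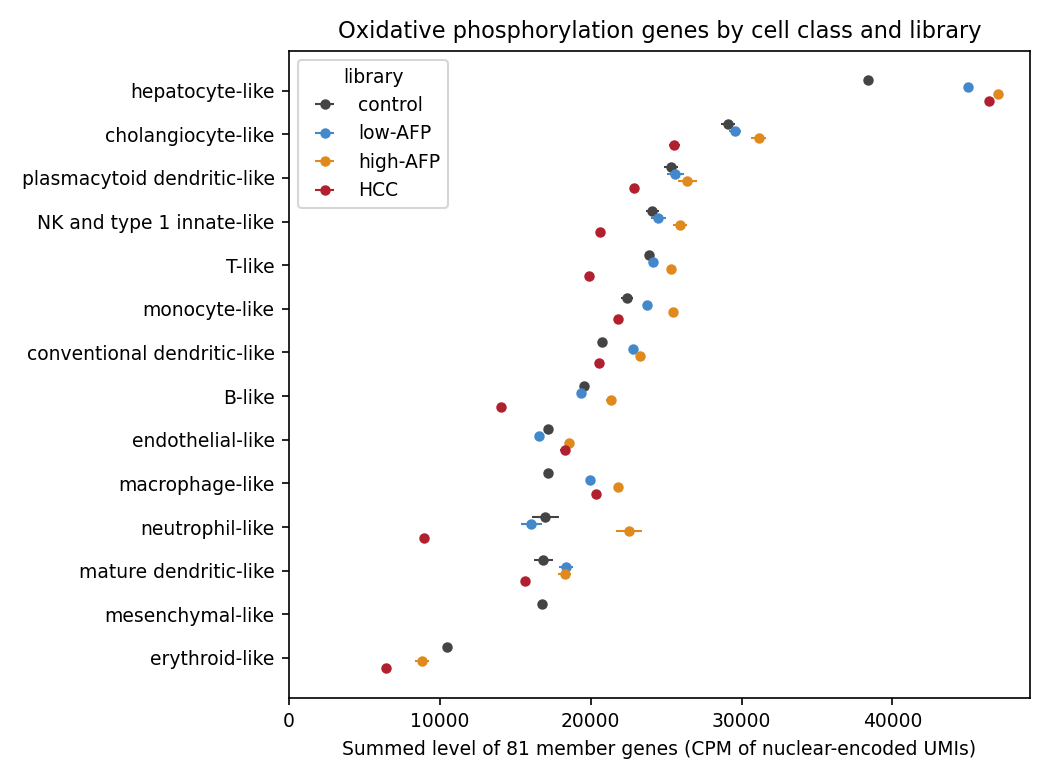
Summed level of the 81 genes (x axis, CPM of nuclear-encoded UMIs) in each named cell class with at least 20 cells (y axis), with 1 point per library and exact 95% Poisson intervals. Hepatocyte-like cells stand highest in all 4 libraries, from 38397 to 46991 CPM, and the HCC point is the lowest of its row in 9 of the 12 classes with at least 20 cells in every library. In the conventional dendritic-like and monocyte-like classes the HCC point lies close to the control point.

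In hepatocyte-like cells the 3 other libraries all stood above control. The ratio of the summed level to control was 1.17 for low-AFP, 1.22 for high-AFP and 1.21 for HCC. With at most 15% mitochondrial UMIs per cell low-AFP turned to 0.999, and within cluster 4, described below, HCC was at 1.01. By complex, the summed level of the Nduf genes of complex I, which takes electrons from NADH, was 12190, 14862, 15625 and 15682 CPM. The Uqcr genes of complex III, which hands electrons to cytochrome c, stood at 5433, 6420, 6794 and 6599 CPM. The Cox genes of complex IV, which reduces oxygen, stood at 9611, 11444, 11675 and 10410 CPM, so HCC was the closest of the 3 to control there. The Atp5 genes of complex V stood at 11163, 12280, 12897 and 13687 CPM, with HCC the highest.

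A gene was counted as higher or lower when its CPM, after adding 10, differed at least 1.5-fold and it reached 10 CPM in either library. In low-AFP against control 1 of 72 measured members was higher (1.39% against a background of 3.5% of 6980 genes) and 0 were lower (background 1.49%), so the members were not called more often than other genes. In high-AFP against control 11 of 72 were higher (background 5.92% of 7040 genes) and 0 lower (background 2.5%). Counted in either direction, it fell to 0 with at most 15% mitochondrial UMIs per cell (all genes 10.8%). It rose to 31 in cells of 2000 to 10000 UMIs (all genes 25.3%). In HCC against control 26 of 72 were higher (background 29.2% of 7673 genes) and 1 was lower (background 14%). The share of members called higher in HCC, 36.1%, is therefore near the background. Members called in either direction in HCC, 27 here, numbered between 8 and 43 under the other settings tried. The 8 were at 2-fold (all genes 19.2%) and the 43 in cells of 2000 to 10000 UMIs (all genes 60.8%). The median log2 fold of the members was 0.24 for low-AFP, 0.28 for high-AFP and 0.42 for HCC, beside 0.04, 0.04 and 0.20 over all genes measured. Cytosolic ribosomal protein genes, another large set of short abundant transcripts, had medians of 0.33, 0.35 and 1.13. The 3 comparisons share the control library.

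**Figure D2:**
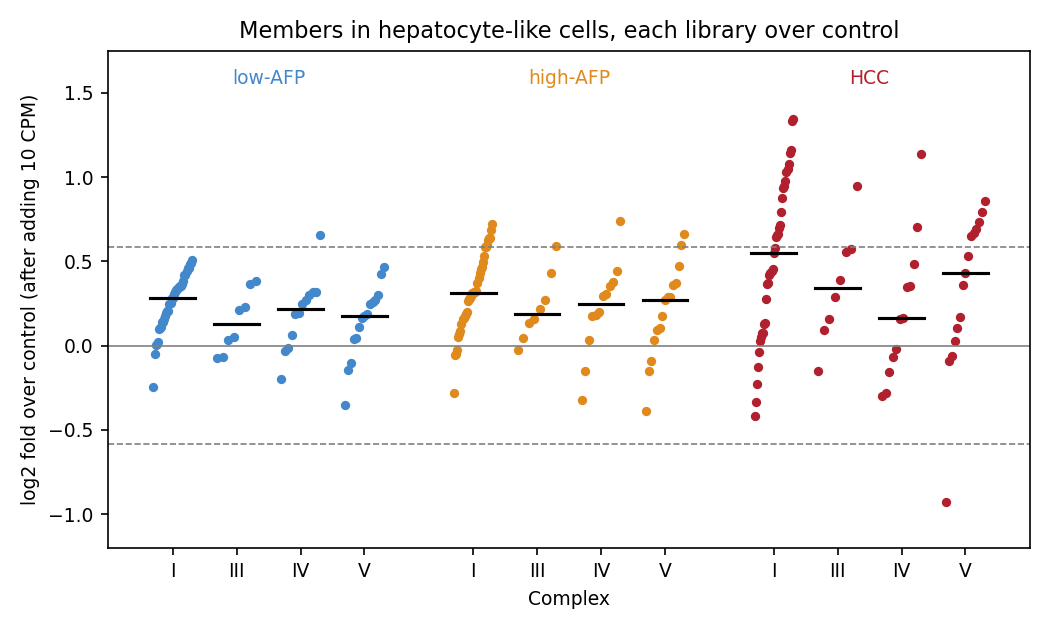
Log2 fold over control (y axis, after adding 10 CPM) of the 72 members measured in hepatocyte-like cells, by complex (x axis) and library (colour), with 1 point per gene, a black bar at the median and dashed lines at 1.5-fold. Most points of low-AFP and high-AFP lie between 0 and the upper line, and the HCC points of complex I spread from -0.42 to 1.34.

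The most abundant members in control hepatocyte-like cells were small accessory subunits and the c-ring and stalk genes of the ATP synthase. Ndufa4, named for complex I but now regarded as a complex IV subunit, was at 1748, 2341, 2724 and 1602 CPM, so its HCC value was the lowest. Cox6c, a complex IV accessory subunit, was at 1637, 1873, 1882 and 1327 CPM and likewise lowest in HCC. Uqcrq, a small subunit of complex III, was at 1632, 2108, 2205 and 2141 CPM and was lowest in control. Atp5e, the epsilon subunit in the central stalk of the ATP synthase, was at 1396, 1657, 1710 and 1500 CPM. Ndufa4 was among the members called higher in high-AFP, and none of these 4 genes reached 1.5-fold in HCC. UMI counts are counts of molecules and are not divided by gene length, and capture can still differ between genes.

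Cox6b1, an accessory subunit at the dimer interface of complex IV, was the only member called in low-AFP. Its level was 627, 993, 1052 and 1027 CPM, with log2 folds over control of 0.65, 0.74 and 0.70. In the class as a whole all 3 libraries stood above control and close to one another. Within cluster 4 Cox6b1 was at 1307.7, 1354.5, 1477 and 1260.9 CPM, with log2 folds over control of 0.05, 0.17 and -0.05. Ndufs5, an accessory subunit of complex I, was at 240, 345, 392 and 449 CPM. Atp5g2, one of the genes for the identical c subunit of the proton-driven ring, was at 422, 587, 673 and 614 CPM. Its paralogue Atp5g1 was likewise lowest in control, at 986, 1180, 1267 and 1111 CPM, with a highest log2 fold of 0.36. The other paralogue, Atp5g3, was highest in control, at 956, 864, 861 and 498 CPM. Atp5g3, with a log2 fold of -0.93 in HCC, was the only member called lower against control in hepatocyte-like cells of any library. Within cluster 4 Atp5g3 went from 673 CPM in control to 544 in HCC, a log2 fold of -0.30, and was not called. It was also lower in HCC than in control in other classes, at 240 and 107 CPM in B-like cells and 314 and 205 CPM in macrophage-like cells.

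The lowest folds in low-AFP and high-AFP included those of 3 large catalytic or core subunits and did not reach 1.5-fold. Atp5a1, the alpha subunit of the catalytic head, was at 958, 747, 731 and 916 CPM. Atp5b, the catalytic beta subunit, was at 734, 683, 688 and 1336 CPM, so that its HCC value stood alone, with a log2 fold over control of 0.86. Ndufs1, the largest subunit of complex I, was at 77.3, 63.8, 61.8 and 82.0 CPM. In HCC the lowest folds after Atp5g3 were those of Ndufa3 (-0.42), Ndufa1 (-0.34), Cox6c (-0.30) and Cox7c (-0.28).

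In HCC the highest folds were mostly those of the nuclear-encoded core subunits of complex I, among them the carriers of its flavin and iron-sulphur clusters. This grouping was made after the values were seen. Of the 7 core genes, 6 were at least 1.5-fold higher in HCC than in control, with a median log2 fold of 1.15, and Ndufs1 was not, at 0.08. Of all genes 29.2% were higher in this comparison, with a median of 0.20. Of the 30 measured accessory subunits of complex I, 11 were higher, a share near that of all genes, with a median of 0.44. Ndufs7 was at 104, 143, 178 and 280 CPM. Ndufv1, which binds NADH, was at 94.2, 102, 106 and 252 CPM. Ndufs3 was at 142, 181, 194 and 326 CPM. In these 3 genes HCC stood well above the other 3 libraries in the class as a whole, and low-AFP lay nearer to control. Within cluster 4 HCC was below high-AFP in Ndufs7, at 356 against 458 CPM, and in Ndufs3, at 453 against 477 CPM. Ndufv1 stayed highest in HCC there, at 359 CPM. The log2 folds of HCC over control in that cluster were 0.34, 0.33 and 0.77 in turn. Cox7a2l, a factor in joining complexes III and IV, was at 146, 144, 167 and 333 CPM, with a log2 fold of 1.14 in HCC.

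**Figure D3:**
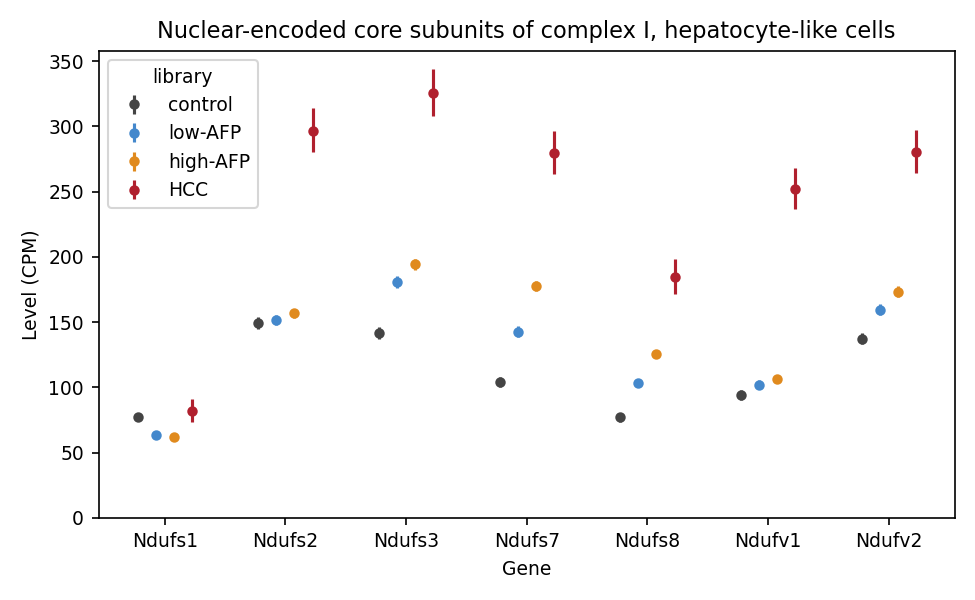
Level (y axis, CPM) of the 7 nuclear-encoded core subunits of complex I (x axis) in hepatocyte-like cells of each library, with exact 95% Poisson intervals. HCC stands above the other 3 libraries in 6 genes, and Ndufs1 stays between 61.8 and 82.0 CPM.

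The folds in HCC also went with the level in control. Among members at 50 to 300 CPM in control, 18 of 24 were higher in HCC, where 27.8% of all genes of that range were. Among members at 300 to 3000 CPM, 8 of 47 were higher, where 28.3% of all genes of that range were. The core genes of complex I all lie in the lower range.

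The hepatocyte-like class was not made of the same clusters in each library, and the members' level differed between clusters. Cluster 0 held 1580 of the control cells and 2 of the HCC cells. Cluster 20, whose leading genes include Afp and cell-cycle genes, held 317 of the HCC cells and 9 of the control cells, and its HCC cells stood at 45653 CPM. Because UMIs were summed, clusters did not weigh by their cell counts. Of the nuclear-encoded UMIs of the class in HCC, cluster 20 gave 23.5%, cluster 4 gave 31.6%, and cluster 18 gave 28.4% from 32 cells. In control, low-AFP and high-AFP cluster 4 gave 5.06%, 5.85% and 8.68%. Cluster 0 gave 74.0% in control and 1.78% in HCC. Cluster 4 was the only one with over 200 cells in each library. Its members stood at 58131, 61240, 65384 and 58845 CPM, above the class as a whole in every library. Mitochondrially encoded UMIs were 2.9%, 2.2%, 1.6% and 3.7% of all UMIs there, and the nuclear-retained RNAs Malat1 and Neat1 together stood at 38.9, 260, 122 and 1117 CPM. Within cluster 4, HCC and control thus differed by a ratio of 1.01, with 8 of 72 members higher (background 27.2%) and 1 lower (background 9.96%). The 1 called lower there was Ndufb9, at 1020 CPM in control and 641 in HCC, and not Atp5g3. The median log2 fold in cluster 4 was -0.01 beside 0.33 over all genes. There 2 of the 7 core genes of complex I were higher in HCC. In cluster 18, with 142 control and 32 HCC cells, the core count was 6 of 7 (background 28.8%), and the level was 32321 CPM in control and 35156 in HCC.

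The cells richest in nuclear-retained RNA had the lowest member level. Cluster 19 stood at 97440, 106262 and 77690 CPM of Malat1 and Neat1 in control, low-AFP and high-AFP, from 167, 143 and 124 cells. Its members stood at 10419, 7344 and 11874 CPM. In clusters 0, 2 and 18 low-AFP and high-AFP both stood above control, for example at 46330 and 46335 against 38846 CPM in cluster 0. The unnamed clusters 11, 22 and 34 are outside the class, and their 508 HCC cells together stood at 39134 CPM. Cluster 34 holds 65 HCC and 2 high-AFP cells and has Afp among its leading genes. Its cells were the deepest of all clusters, at a median of 5.59 times the median UMIs of their library. Cluster 22 was left unnamed by a minimum score set after it was seen, holds 355 HCC and 6 high-AFP cells and is led by hepatocyte genes, and its members stood at 56227 CPM in HCC.

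In the class as a whole the mitochondrially encoded genes went the other way. Their share of all UMIs in hepatocyte-like cells was 21.5%, 16.1%, 15.2% and 9.89%. All 13 were at least 1.5-fold lower in HCC than in control, with a median log2 fold of -1.16, and 3 and 4 were in low-AFP and high-AFP. mt-Co1, the catalytic subunit of complex IV, stood at 59312, 34400, 32480 and 17784 UMIs per 1000000 nuclear-encoded UMIs. mt-Nd3, a complex I subunit, stood at 7403, 3764, 2862 and 2767. Within complex I there were 5.27, 3.43, 2.88 and 1.79 mitochondrially encoded UMIs per member UMI. Within complex IV the ratio was 13.8, 7.22, 6.87 and 5.11. The filter at 30% acts on the same share and removed more control than HCC barcodes, and its part in these ratios was not tested. Within cluster 4 the mitochondrial share given above was instead higher in HCC than in control, and lower in low-AFP and high-AFP. The clusters that made up the class differed between the libraries, and their part was not tested either.

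Read within bands of the mitochondrial share, the members' level depended on the band. In cells with 0 to 5% mitochondrial UMIs it was 51762, 53454, 60795 and 52747 CPM, from 251, 418, 957 and 402 cells. In cells with 10 to 20% it was 39951, 44925, 45974 and 39353 CPM, and in cells with 20 to 30% it was 36809, 43844, 42820 and 38333 CPM. HCC thus lay close to control in these 3 bands, while in the band of 5 to 10% it stood at 49536 CPM against 37304 in control, from 128 and 64 cells. Low-AFP and high-AFP stood above control in all 4 bands. Of the HCC cells, 402 of 718 were in the lowest band, and of the control cells 251 of 2384.

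**Figure D4:**
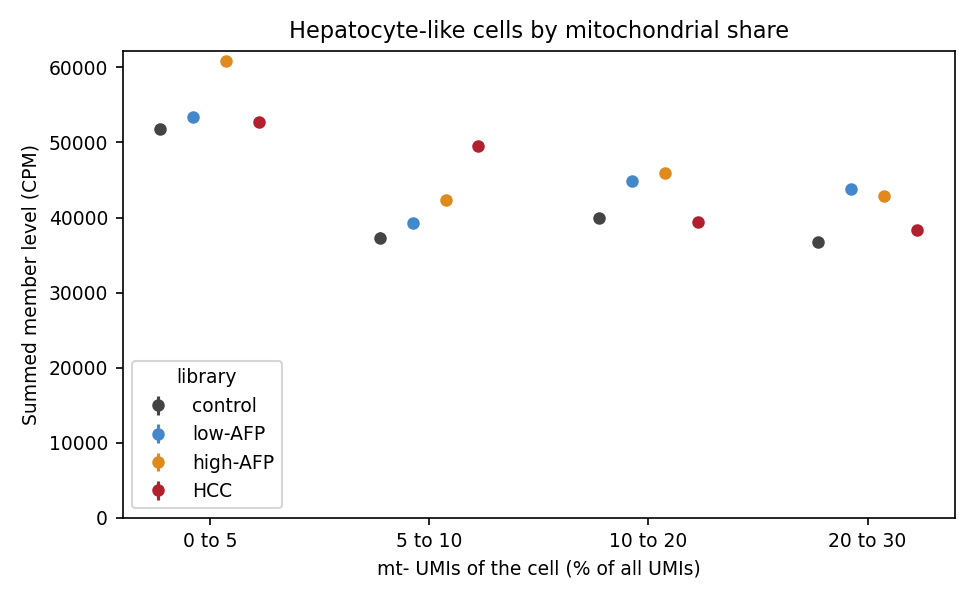
Summed level of the 81 genes (y axis, CPM) in hepatocyte-like cells by the mitochondrial share of the cell (x axis, % of all UMIs), with 1 point per library and exact 95% Poisson intervals. The lowest band stands highest in each library, and HCC lies near control in the bands of 0 to 5%, 10 to 20% and 20 to 30%.

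Other genes of the pathway were read from fixed lists in the same cells. In HCC against control, 61 of 77 measured mitochondrial ribosomal protein genes were higher and 1 lower, 6 of 14 complex I assembly factors were higher, and 9 of 22 assembly factors of complexes III and IV were higher and 1 lower. With 29.2% of all genes higher and 14% lower in this comparison, the counts of the assembly factors, like those of the TCA cycle and the regulators below, are not read as particular to the lists. Mitochondrial redox defence had 5 of 6 higher: Gpx4, which reduces lipid peroxides, was at 510, 956, 1087 and 1842 CPM. Prdx3, a mitochondrial peroxidase, was at 99.3, 116, 145 and 323 CPM. Atpif1, the inhibitor of the ATP synthase, was at 42.4, 78.4, 94.4 and 207 CPM, with a log2 fold of 2.05 in HCC. Ucp2, an inner membrane carrier, was at 3.58, 9.95, 12.5 and 59.0 CPM. Complex II, which has no mitochondrially encoded subunit, was split: Sdhb was at 169, 186, 239 and 375 CPM and Sdha at 422, 324, 347 and 269 CPM. The TCA cycle had 5 of 13 higher and 2 lower, with Mdh2 at 176 CPM in control and 438 in HCC, and Ogdh at 166 and 95.7 CPM. Of the regulators, 1 of 7 measured was higher. Ppargc1a, a coactivator of mitochondrial genes, was at 29.1, 18.7, 21.5 and 23.5 CPM.

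Outside hepatocyte-like cells, 16 of 24 comparisons of a class with control stood above 1. Macrophage-like cells were above control in each library, at 17137, 19953, 21776 and 20349 CPM. Their members called higher in low-AFP, high-AFP and HCC were 1, 4 and 6 of 71, against backgrounds of 1.9%, 1.82% and 5.38%, and in HCC 1 was lower against 21.9%. The make-up of the class differed: cluster 6, led by Clec4f and Vsig4, genes of resident liver macrophages, held 313, 298, 518 and 97 of its cells, and cluster 9, led by Gpnmb and Trem2 among others, held 78, 262, 449 and 195. Control was lowest within both, at 15316, 18948, 21177 and 19802 CPM in cluster 6 and at 18124, 19807, 21567 and 19951 CPM in cluster 9. In cluster 15, with 140, 116, 193 and 221 cells, control was instead highest, at 30109, 27726, 29710 and 23623 CPM. Its cells were shallow, at a median of 0.191 times the median UMIs of their library, against 1.35 in cluster 6 and 1.6 in cluster 9. The part of depth in these levels was not tested. Endothelial-like cells stood at 17153, 16573, 18569 and 18273 CPM and had 0, 0 and 3 of 71 members higher in the 3 libraries after control, against 2.61%, 3.23% and 12.9% of all genes, and in HCC 1 lower against 21%. Monocyte-like cells stood at 22418, 23720, 25451 and 21786 CPM.

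HCC was the lowest library in 9 of the 12 classes with at least 20 cells in every library, and below control in each of the 9, which include the lymphoid, dendritic, monocyte-like, neutrophil-like and cholangiocyte-like classes. The gap to control was small in conventional dendritic-like cells, at a ratio of 0.989 with overlapping counting intervals, and in monocyte-like cells, at 0.972. Both ratios lay above 1 under some of the other settings tried. B-like cells were at 19562, 19322, 21329 and 14077 CPM, a ratio of 0.72 for HCC against control, with 26 of 72 members lower against a background of 16.7% and 0 higher against 3.96%. Control and HCC B-like cells lay in nearly separate clusters: cluster 12 held 201 of the control and 4 of the HCC cells, cluster 14 held 1 and 706, and so no cluster allowed the ratio to be read within it. T-like cells were at 23870, 24153, 25320 and 19862 CPM, a ratio of 0.83, with 6 of 72 lower against 11.5% and 1 higher against 5.14%. Of the control T-like cells 330 were in cluster 7, with 26 of the HCC cells, while 1582 and 843 HCC cells were in clusters 3 and 10, with 0 and 8 of the control cells. Within cluster 7 HCC stood above control, at 27792 against 23299 CPM, and within the small cluster 30, with 21 control and 83 HCC cells, it stood below, at 22607 against 26229 CPM. NK and type 1 innate-like cells were at 24069, 24486, 25912 and 20625 CPM, a ratio of 0.86, with 9 of 72 lower against 20.2% and 1 higher against 7.22%. Neutrophil-like cells, which are myeloid, stood at 16973, 16052, 22545 and 8928 CPM, from 45, 57, 59 and 228 cells, and control had too few for a comparison. This class is cluster 21 alone, which scored 5.58 for neutrophil markers and 4.47 for mast and basophil markers. Whether its make-up differed between the libraries was not tested. High-AFP stood highest, with 29 of 71 members higher than in low-AFP (background 26.6%) and 1 lower (background 25.5%). HCC stood at a ratio of 0.40 to high-AFP, with 63 of 71 members lower against 33.7% of all genes and 0 higher against 20%. Hepatocyte RNA in these classes moved with the result: the 10 hepatocyte markers, all detected in each, summed to 12935 CPM in control and 1548 in HCC in B-like cells, and to 20979 CPM in high-AFP and 1831 in HCC in neutrophil-like cells. These markers also fell from control to HCC in 2 classes whose members stood above control in HCC. They went from 7334 to 1124 CPM in macrophage-like cells and from 9649 to 1180 CPM in endothelial-like cells. After subtracting hepatocyte-like levels in proportion to these markers, the ratio of HCC to control was 0.76 in B-like, 0.86 in T-like and 0.90 in NK and type 1 innate-like cells. In neutrophil-like cells HCC was then at 0.55 of high-AFP, and high-AFP at 1.22 times low-AFP. The nuclear-retained RNAs Malat1 and Neat1 also moved with the result, from 21042 CPM in control to 31476 in HCC in B-like cells, from 17465 to 25449 in T-like cells, and from 18988 in high-AFP to 30360 in HCC in neutrophil-like cells. In endothelial-like cells, whose members were not lower in HCC, they went from 14008 to 24846 CPM. The mitochondrial share in B-like cells was 8.80% in control and 10.7% in HCC. The part of these RNAs and shares in the result was not tested.

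Only a few members were uneven across classes. Cox6a2, known as the heart and muscle isoform of subunit 6A of complex IV, was found in plasmacytoid dendritic-like cells, the interferon-producing dendritic cells. It was at 1537 (1425 to 1655), 1891 (1742 to 2050), 1557 (1408 to 1717) and 1956 (1877 to 2037) CPM, from 69, 40, 46 and 136 cells. At least 1 UMI was found in 94.2%, 90.0%, 93.5% and 94.9% of these cells. Of hepatocyte-like cells 0.0419%, 0.155%, 0.211% and 0.836% held a UMI, where the median depth was 14416, 19502, 14056 and 2266 UMIs, against 7274, 8453, 6100 and 9433 in the plasmacytoid dendritic-like class. The widely expressed isoform Cox6a1 was at 217, 182, 234 and 255 CPM in plasmacytoid dendritic-like cells, below Cox6a2 in each library, and at 374, 365, 336 and 418 CPM in hepatocyte-like cells.

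**Figure D5:**
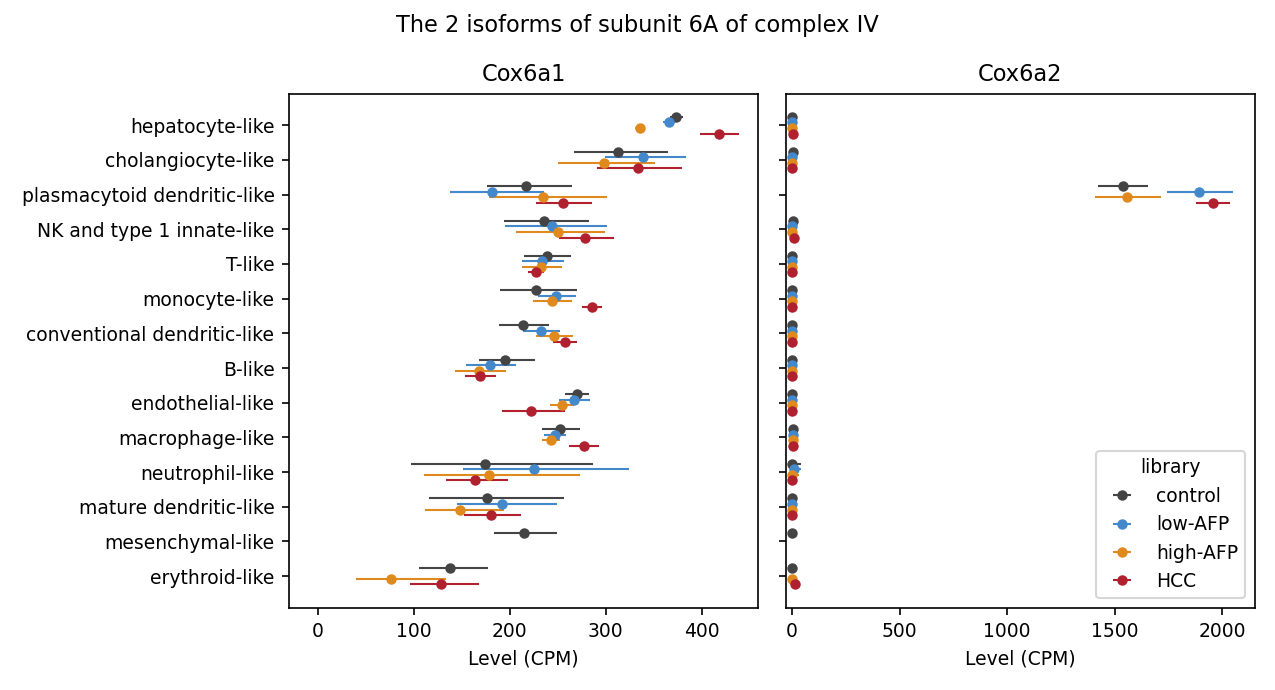
Level (x axes, CPM; the panels differ in scale) of Cox6a1 and Cox6a2 in each named cell class with at least 20 cells (y axis) and library (colour), with exact 95% Poisson intervals. Cox6a1 is found in every class, and Cox6a2 stands between 1537 and 1956 CPM in plasmacytoid dendritic-like cells.

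Uqcrq was uneven in the other direction of abundance, being high in hepatocyte-like cells, at 1632 CPM in control against 342 in cholangiocyte-like, 341 in endothelial-like and 335 in macrophage-like cells. Ndufa4l2, a hypoxia-inducible paralogue of Ndufa4, reached 36.1 CPM (24.2 to 51.9) in control mesenchymal-like cells, from 29 UMIs, against 1.36 CPM in hepatocyte-like cells. Cox7a1, the muscle isoform of subunit 7A, reached 46.4 CPM in control and 32.2 in low-AFP cholangiocyte-like cells, from 24 UMIs each, against 14.9 and 11.7 CPM in hepatocyte-like cells. Cox4i2, Cox7b2 and Cox8c had no UMI in hepatocyte-like cells of any library.

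Promoters were read for the members, whatever their folds, because oxidative phosphorylation genes are known for shared sites of NRF1, ETS factors, YY1 and oestrogen-related receptors (ERR). The RefSeq table for GRCm38.p6 gives windows from 250 bases before to 50 after a start, and 65 of the 81 rows matched. On either strand the NRF1 motif was in a window of 23.4% of 64 member genes and 7.17% of all protein-coding genes. The ETS motif CCGGAAG was in 21.9% and 12.9%, and the YY1 motif AAGATGGCG in 10.9% (7 of 64) and 2.14%. The ERR motif TCAAGGTCA was in 1 of 64 member genes (1.56%), which is Atp5g3, and in 0.377% of all protein-coding genes. A match is a description of letters and not of binding. The 150 bases before the start of 4 named genes follow, on the gene's strand from 5′ to 3′, with motif matches in capitals. They are Cox6b1 at chr7:30626115-30626264, Ndufs5 at chr4:123718187-123718336, Atp5g2 at chr15:102671048-102671197 and Atp5g3 at chr2:73911327-73911476. In hepatocyte-like cells as a whole the first 3 stood above control in all 3 libraries, and Atp5g3 was the one called lower in HCC. All 4 lie on the minus strand. Each of the 4 holds a match, although no single motif was in more than 23.4% of the member genes.
Cox6b1, ETS: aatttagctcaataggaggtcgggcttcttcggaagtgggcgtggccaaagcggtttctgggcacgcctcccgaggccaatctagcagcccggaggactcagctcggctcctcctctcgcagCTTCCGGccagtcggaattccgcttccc
Ndufs5, NRF1: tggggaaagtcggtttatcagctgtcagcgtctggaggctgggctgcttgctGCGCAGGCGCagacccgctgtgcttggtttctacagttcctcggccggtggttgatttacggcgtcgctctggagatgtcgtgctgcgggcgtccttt
Atp5g2, NRF1: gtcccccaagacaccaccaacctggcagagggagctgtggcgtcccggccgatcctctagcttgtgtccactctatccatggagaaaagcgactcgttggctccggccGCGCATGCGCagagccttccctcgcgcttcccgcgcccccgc
Atp5g3, ERR: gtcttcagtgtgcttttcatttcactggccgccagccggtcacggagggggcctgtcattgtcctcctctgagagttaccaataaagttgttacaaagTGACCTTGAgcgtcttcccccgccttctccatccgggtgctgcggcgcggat
The window of Atp5g3 also holds an NRF1 match, just after the start and outside the bases shown, so both c-subunit genes shown have one. Whether the motifs have a part in any level was not tested.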

How the data were processed

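Single-cell 3' RNA counts of 4 mouse liver libraries were used as deposited. The deposited UMI counts are whole numbers per gene and barcode. Cell Ranger, Seurat 3, R 3.0 and mm9 are listed in the submitters' processing notes, and per the file headers the matrices come from Cell Ranger 3.0.2. No coordinate of the files was used.

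Kept barcodes had 300 or more genes, 500 or more UMIs and no more than 30% of UMIs from mitochondrial genes. Scrublet in scanpy 1.11.5 marked under 0.5% of barcodes as doublets in every library, so the highest scores were removed at 0.8% per 1000 barcodes: 323, 230, 575 and 513, libraries ordered as above. Counts were scaled to 10000 per cell, and 2000 variable genes, chosen without the members and mitochondrial genes, gave 30 principal components, 15 neighbours and 37 Leiden clusters (leidenalg 0.10.2, resolution 1). Clusters were named from marker lists, needing 3 detected markers and a score of at least 0.5. The score limit was set after seeing cluster 22. UMIs were summed per class and library. Classes with at least 50 cells in both libraries were compared, and the fold rule was tested on simulated data. There are no replicates, and no paired analysis was possible because each group has 1 library.

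Named genes were the 5 highest and 5 lowest folds per library (at least 50 UMIs), the 3 most abundant per complex, members at least 4 times their median over classes, isoform pairs, and the largest folds of each pathway list, and not all are printed. Members, lists and rules were chosen with earlier results of these data known. Alternatives covered the mitochondrial limit, denominator, cell weights, depth, clustering and fold rule.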

Additional observations from a re-analysis of the deposited data

Results flagged for a closer look

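In HCC against control the summed level of the 81 genes went opposite ways in different classes, by at least 1.2-fold each. It was 1.21 times control in hepatocyte-like cells, 0.832 times in T-like cells and 0.72 times in B-like cells. Each value compares 1 library with 1 library, and the difference between the classes was not tested. Control and HCC cells of these classes lay largely in different clusters. Within hepatocyte-like cluster 4 the ratio was 1.01, and within T-like cluster 7, with 26 HCC cells, HCC stood at 27792 CPM against 23299 in control.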

How the results depend on the processing

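With 1 library per group no replicate could be left out, and no paired analysis was possible because each group has 1 library. The doublet alternative of an expected rate in every library coincided with the setting used and gave no separate value. Alternatives named as added were chosen after seeing the data: no doublet removal, cluster 4 only, no clusters 4 and 19, the unnamed clusters included, a denominator without hepatocyte markers, and hepatocyte RNA subtracted.

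The summed level of hepatocyte-like cells against control, given for low-AFP, high-AFP and HCC in turn, was 0.999, 1.09 and 1.09 with at most 15% mitochondrial UMIs, so low-AFP turned to the other side of 1 there. It was 1.18, 1.24 and 1.25 at 50%, 1.25, 1.32 and 1.39 over all UMIs, 1.22, 1.31 and 1.36 with cells of equal weight, 1.21, 1.44 and 1.49 in cells of 2000 to 10000 UMIs, and 1.19, 1.24 and 1.28 without ribosomal protein genes. Added alternatives gave 1.05, 1.12 and 1.01 in cluster 4, 1.18, 1.2 and 1.08 without clusters 4 and 19, and 1.14, 1.16 and 1.12 without hepatocyte markers. For high-AFP and HCC, no doublet removal gave 1.23 and 1.27. For HCC alone, resolution 0.5 gave 1.35, clustering with the members 1.31, and the unnamed clusters 1.13. Only the 15% limit for low-AFP gave a value under 1.

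Members called in low-AFP, high-AFP and HCC numbered 0, 0 and 8 at 2-fold (all genes 1.45%, 2.19% and 19.2%), 0, 0 and 10 at the 15% limit (all genes 9.67%, 10.8% and 41.1%), and 9, 31 and 43 in cells of 2000 to 10000 UMIs, which is 12.5%, 42.5% and 59.7% of members against 12.8%, 25.3% and 60.8% of all genes. Over all UMIs low-AFP had 2 (all genes 6.03%). High-AFP had 18 with cells of equal weight (all genes 13.5%), 5 in cluster 4 (all genes 24.2%) and 3 without hepatocyte markers (all genes 7.97%). HCC had 9 in cluster 4 (all genes 37.2%) and 16 without clusters 4 and 19 (all genes 41.4%). The cause of these shifts was not tested.

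In the other classes between 14 and 19 of 24 comparisons stood above control. Of 264 single values there, 174 moved by less than their counting interval, 87 by more, and 3 turned to the other side of 1 from a value whose counting interval lay off 1: endothelial-like HCC at 0.956 in cells of 2000 to 10000 UMIs, and monocyte-like HCC at 1.01 with the 50% limit and 1.00 without ribosomal protein genes. In all, 17 of the 264 lay on the other side of 1, in 7 of 24 comparisons. The other 5 comparisons, whose own counting intervals held 1, were low-AFP in the B-like, T-like, NK and type 1 innate-like and cholangiocyte-like classes and HCC in conventional dendritic-like cells. Median depth was low in neutrophil-like cells, at 1917 to 2713 UMIs, and in hepatocyte-like HCC cells, at 2266.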
